A study of Mus musculus with 8 samples.

Results

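The colony-stimulating factor system of mononuclear phagocytes was described through 9 genes, chosen by name from the 19938 genes that the arrays measured with a probe set carrying 1 gene symbol. They were the receptor genes Csf1r, Csf2ra, Csf2rb, Csf2rb2, Il3ra and Csf3r and the ligand genes Csf1, Il34 and Csf2, and each had 1 such probe set. Cells were sorted from the lamina propria of the colon and from the spleen of C57BL/6 mice, and each of 8 groups gave 1 array. Every mouse was Cx3cr1gfp/+, so 1 of its Cx3cr1 copies carried a green fluorescent reporter, and no group had both copies intact. At day 4 of colitis induced with dextran sodium sulphate the groups were colonic CX3CR1int Ly6Clo, colonic CX3CR1int Ly6Chi, colonic CX3CR1hi F4/80hi and splenic Ly6Chi cells. In steady state they were colonic CX3CR1hi F4/80hi cells, colonic CX3CR1hi macrophages reconstituted from monocytes, colonic CX3CR1hi resident macrophages and splenic Ly6Chi monocytes. Labelled sex was female for steady-state spleen and for reconstituted and resident macrophages, and male for the other 5 groups. The labels do not give the ages of the mice, the number pooled for a sample or whether samples came from separate mice.

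CSF1 and IL-34 are separate ligands of 1 receptor tyrosine kinase, CSF1R, on which most tissue macrophages depend for survival. GM-CSF, the product of Csf2, and IL-3 each bind a private alpha chain, encoded by Csf2ra and Il3ra, which then pairs with a signalling beta chain. Csf2rb encodes the beta chain common to GM-CSF, IL-3 and IL-5, and Csf2rb2 a beta chain that in the mouse serves IL-3 alone. The receptor for G-CSF, encoded by Csf3r, is best known for its part in neutrophil production. In the gut, GM-CSF from lymphoid cells acts on macrophages and dendritic cells, and CSF1 maintains the macrophages of the lamina propria.

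Values are deposited log2 levels, on which a difference of 1 is 2-fold, and array medians over all probe sets lay between 5.77 and 5.87. Since each group had 1 array, arrays were also tested by population, with 2 CX3CR1int, 4 CX3CR1hi and 2 splenic arrays in 1 limma fit over 10673 genes and Benjamini-Hochberg adjustment. Arrays of 1 population differed in condition, origin, Ly6C gate or labelled sex, so the SD between them is no error of repeat samples. Where populations are said below not to overlap, the share of all genes without overlap was not counted. Both CX3CR1int arrays came from colitis, as did 1 CX3CR1hi and 1 splenic array, and there was no steady-state CX3CR1int array. A fit with colitis as a block was therefore added after seeing the data; it assumes that colitis moves a gene alike in every population. With that block 3.79% of genes were higher and 5.31% lower in CX3CR1int than in CX3CR1hi cells. The steady-state splenic array was labelled female, but Eif2s3y, a Y-linked gene, stood at 10.28 there beside Xist at 10.04. All 10 macrophage markers were at or above the array median in each colonic array (mean log2 level 9.06 to 11.96) and in the colitis splenic array (8.98), and 7 in the steady-state splenic array (8.46). So were all 8 measured markers of Ly6Chi monocytes in the CX3CR1int Ly6Chi array and both splenic arrays. All 10 epithelial markers were at or above it as well in each colonic array (mean log2 level 9.45 to 11.58), against 4 in the colitis and 0 in the steady-state splenic array (5.90 and 5.09). In CX3CR1int against CX3CR1hi cells 0 of these 10 were called higher and 6 lower (median -1.40). Over all tested genes 13.3% were higher and 16.6% lower there. The part of epithelial markers in the differences between the populations was not tested.

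Promoter sequences are shown for the receptor genes whose upstream window holds the core of the binding motif of PU.1, a transcription factor of the myeloid lineage encoded by Spi1. The windows are the 250 bases upstream of a RefSeq transcript start (GRCm38.p6), and the motif was searched as GAGGAA and, on the other strand, TTCCTC. Of the 9 genes, 6 matched an entry of the promoter table that could be used here. Of these 6 windows 3 held the motif, against 25.9% of 27025 genes in the table. The genes left out were Csf1r, Csf2rb and Il34, and whether their windows hold the motif is not reported here. Capitals mark the matches below, each sequence is written 5′ to 3′ on the gene's own strand, and the windows lie at chr19:61228419-61228668 (minus strand) for Csf2ra, chr15:78305722-78305971 (minus strand) for Csf2rb2 and chr4:126024409-126024658 (plus strand) for Csf3r.
Csf2ra: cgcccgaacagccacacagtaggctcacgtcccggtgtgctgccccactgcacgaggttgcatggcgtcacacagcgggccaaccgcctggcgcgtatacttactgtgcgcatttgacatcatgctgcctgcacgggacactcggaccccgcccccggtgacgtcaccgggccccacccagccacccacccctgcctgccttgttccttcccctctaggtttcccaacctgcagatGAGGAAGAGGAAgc
Csf2rb2: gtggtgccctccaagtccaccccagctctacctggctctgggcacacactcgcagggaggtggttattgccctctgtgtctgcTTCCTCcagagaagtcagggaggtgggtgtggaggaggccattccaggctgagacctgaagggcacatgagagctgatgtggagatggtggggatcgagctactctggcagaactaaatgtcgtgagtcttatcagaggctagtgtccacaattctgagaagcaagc
Csf3r: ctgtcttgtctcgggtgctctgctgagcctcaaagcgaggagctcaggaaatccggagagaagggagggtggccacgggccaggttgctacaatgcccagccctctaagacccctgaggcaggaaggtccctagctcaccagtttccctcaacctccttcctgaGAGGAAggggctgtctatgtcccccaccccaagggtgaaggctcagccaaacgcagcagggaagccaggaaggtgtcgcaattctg
The matches of Csf2ra began 14 and 8 bases upstream of the start, that of Csf3r 86 bases upstream, and that of Csf2rb2 167 bases upstream on the other strand. The windows of Csf1, Csf2 and Il3ra held no such letters. By its annotated span Csf3r begins at chr4:126023441, so its window lies inside the gene, as does that of Il3ra. The span of Csf2ra ends at chr19:61228461, so the part of its window next to the start, with both matches, also lies inside the gene. For these genes the window is upstream of the transcript start used, but not wholly upstream of the annotated gene. Spi1 itself, named after its values were seen, had log2 levels between 11.47 and 12.29 over the 8 arrays. A match describes the letters of the window and is not a measured binding site.

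Over the 8 arrays, 7 of the 9 genes lay at or above the array median in every array and entered the tests. The other genes, Il34 and Csf2, lay below it in all 8. Csf3r had the widest range of log2 level among the 7, with 2.69 between its highest and lowest array (6.46-fold), and 11.2% of the tested genes ranged at least as far. The range was 1.60 for Csf1r, 1.18 for Il3ra, 1.11 for Csf2rb2 and 1.05 for Csf2rb. Csf2ra (0.74) and Csf1 (0.73) varied less than the median tested gene (0.98).

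**Figure D1:**
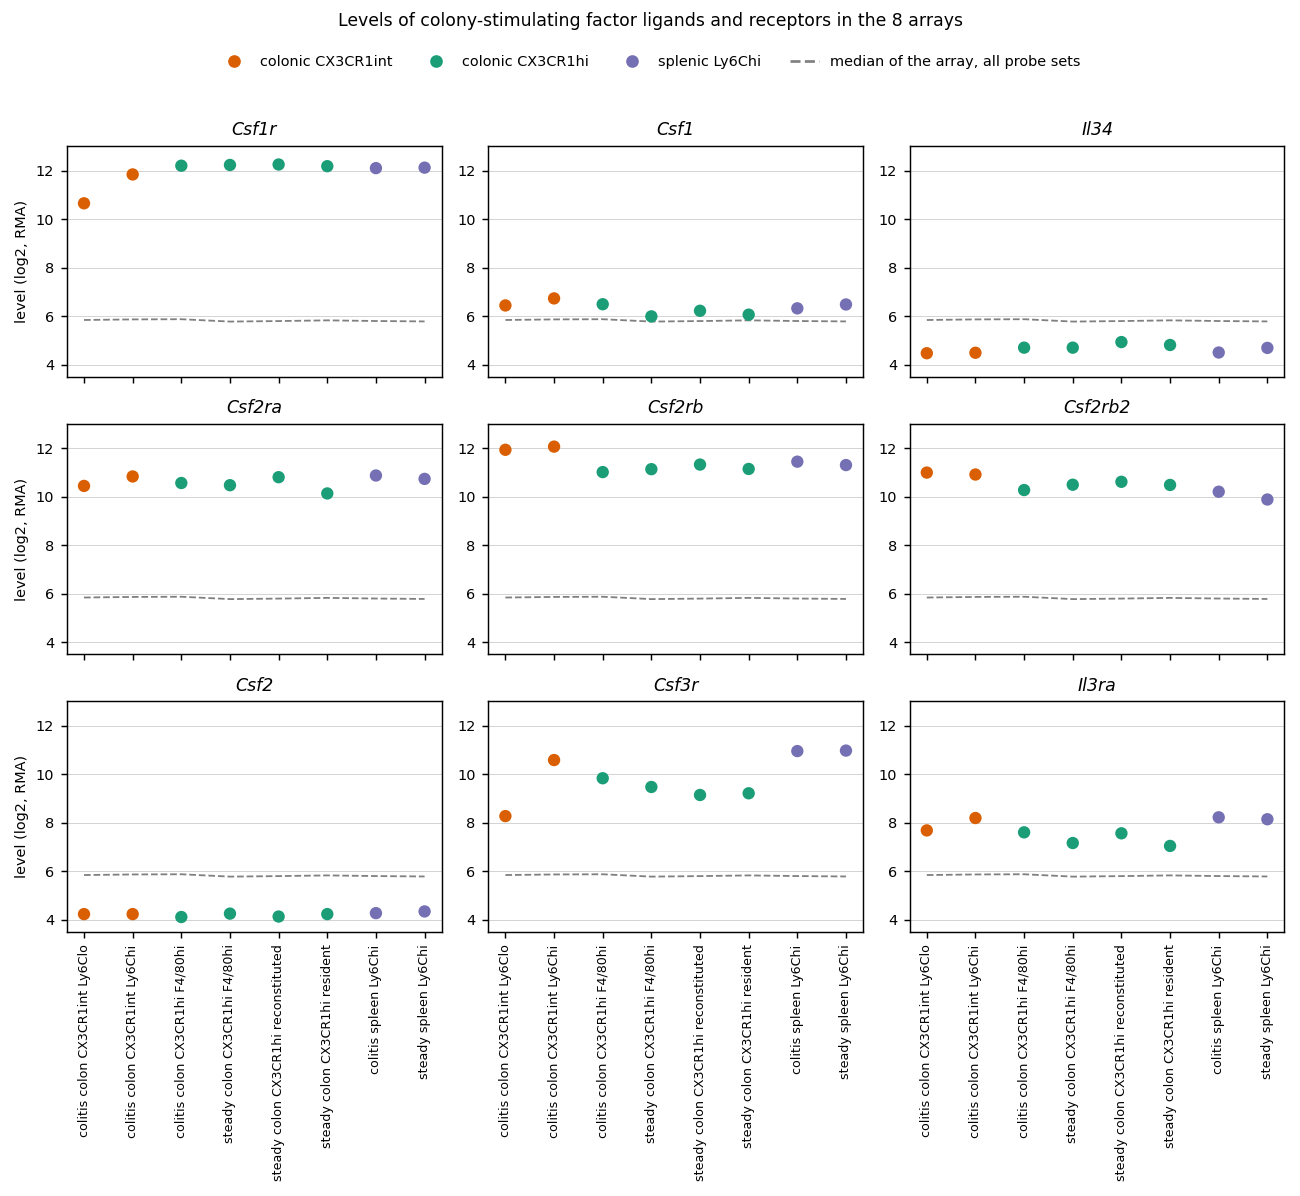
Log2 level (y axis, deposited RMA values) of each of the 9 genes in the 8 arrays (x axis, 1 point an array, coloured by population), with the median of all probe sets of each array as a dashed line. Il34 and Csf2 lie under the line in every array, and the CX3CR1int Ly6Clo array is the lowest point for Csf1r (10.65) and Csf3r (8.27).

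Csf1r, the receptor gene of the macrophage growth factors, was lower in CX3CR1int cells than in CX3CR1hi cells, and most of that difference lay in 1 array. Its log2 level was 10.65 in the CX3CR1int Ly6Clo array and 11.84 in the CX3CR1int Ly6Chi array. In CX3CR1hi cells it was 12.20 in the colitis F4/80hi, 12.23 in the steady-state F4/80hi, 12.25 in the reconstituted and 12.18 in the resident array. Splenic Ly6Chi cells had 12.10 in colitis and 12.12 in steady state. The 4 CX3CR1hi arrays, which differ in condition, origin and labelled sex, were thus close to each other, both splenic arrays were just under them, and both CX3CR1int arrays were below all others. The mean was 11.24 ± 0.84 in CX3CR1int cells (SD, n = 2) and 12.22 ± 0.03 in CX3CR1hi cells (n = 4), a log2 difference of -0.97 (SE 0.28, limma adjusted p = 0.035) or 0.51-fold. Without the Ly6Clo array the difference was -0.38 (adjusted p = 0.053), and without the Ly6Chi array it was -1.56 and remained past the threshold. Leaving out any other single array kept the difference between -0.98 and -0.96 but took the adjusted p to between 0.061 and 0.073. The call was also lost with labelled sex as a block (-0.97, adjusted p = 0.086), with colitis as a block (-0.96, adjusted p = 0.15), with no brightness filter (adjusted p = 0.056) and with only the arrays compared (adjusted p = 0.06). Within colitis the CX3CR1hi array, at 12.20, was above both CX3CR1int arrays. In the same contrast 0 of 10 macrophage markers were called higher and 8 lower (median -3.04). Of 8 Ly6Chi monocyte markers 4 were higher and 0 lower (median 2.37). Of 6 dendritic cell markers tested 4 were higher and 0 lower (median 1.98). Over all tested genes 13.3% were higher and 16.6% lower. The part of these cell type markers in the level of Csf1r was not tested.

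For Csf1r the CX3CR1int and splenic arrays did not overlap. In CX3CR1int cells its difference from the level in splenic monocytes, 12.11 ± 0.01 (n = 2), was -0.86 (SE 0.32, limma adjusted p = 0.088). Without the Ly6Chi array that difference was -1.46 (adjusted p = 0.00036), with the lone remaining CX3CR1int array assumed to vary like the other populations. CX3CR1hi and splenic cells differed in Csf1r by 0.11 (SE 0.28, 95% interval -0.54 to 0.75, adjusted p = 0.77).

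Csf1, the ligand gene, was measured only slightly above the array medians. Its log2 level was 6.44 and 6.73 in the CX3CR1int Ly6Clo and Ly6Chi arrays, and 6.49, 5.99, 6.22 and 6.06 in the colitis F4/80hi, steady-state F4/80hi, reconstituted and resident CX3CR1hi arrays. It was 6.32 and 6.48 in the colitis and steady-state splenic arrays, so the 3 populations overlapped. None of the 3 differences passed the test. CX3CR1int minus CX3CR1hi came closest at 0.39 (SE 0.17, adjusted p = 0.12), and without the colitis F4/80hi array it was 0.49 (adjusted p = 0.048). Csf1 differed by -0.21 (SE 0.17, adjusted p = 0.32) between CX3CR1hi and splenic cells, and by 0.18 (adjusted p = 0.53) between CX3CR1int and splenic cells.

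Il34, the ligand gene known from epidermis and brain, was below the array median throughout, with log2 levels from 4.47 in the CX3CR1int Ly6Clo array to 4.93 in the reconstituted array. Levels this close to the background of an array are not read as expression, and Il34 was not tested. With no brightness filter, over 19938 genes, Il34 differed by -0.31 between CX3CR1int and CX3CR1hi cells (SE 0.10, limma adjusted p = 0.071).

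Both beta chain genes of the GM-CSF and IL-3 receptors were highest in CX3CR1int cells. Csf2rb, the common beta chain gene, had log2 levels of 11.93 and 12.06 in the CX3CR1int Ly6Clo and Ly6Chi arrays. In the CX3CR1hi arrays it had 11.01 (colitis F4/80hi), 11.13 (steady-state F4/80hi), 11.32 (reconstituted) and 11.14 (resident), and in the splenic arrays 11.44 (colitis) and 11.30 (steady state). Both CX3CR1int arrays stood above all 6 others, whereas CX3CR1hi and splenic arrays overlapped. The rise in CX3CR1int over CX3CR1hi cells (11.99 ± 0.09, n = 2, against 11.15 ± 0.13, n = 4) was 0.84 (SE 0.12, adjusted p = 0.0032) or 1.80-fold, and it passed the test in every alternative run, colitis as a block included (0.89, adjusted p = 0.028). Within colitis the CX3CR1hi array, at 11.01, was below both CX3CR1int arrays. Over splenic cells (11.37 ± 0.10, n = 2) the rise was 0.63 (SE 0.14, adjusted p = 0.019) or 1.54-fold. That call was lost with only the arrays compared (adjusted p = 0.066), without the steady-state splenic array (0.56, adjusted p = 0.15) and without the colitis splenic array (0.69, adjusted p = 0.078). CX3CR1hi cells differed from splenic cells by -0.22 (SE 0.12, adjusted p = 0.18).

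Csf2rb2, the IL-3 beta chain gene, followed the order CX3CR1int, CX3CR1hi, splenic, with no overlap between neighbours. Its log2 level was 10.99 in the CX3CR1int Ly6Clo array and 10.91 in the Ly6Chi array. The colitis F4/80hi, steady-state F4/80hi, reconstituted and resident CX3CR1hi arrays had 10.27, 10.49, 10.61 and 10.48, and the colitis and steady-state splenic arrays 10.20 and 9.88. Csf2rb2 rose by 0.92 in CX3CR1int over splenic cells (SE 0.16, adjusted p = 0.0075, 1.89-fold), by 0.49 in CX3CR1int over CX3CR1hi cells (SE 0.14, adjusted p = 0.035, 1.41-fold) and by 0.42 in CX3CR1hi over splenic cells (SE 0.14, adjusted p = 0.037, 1.34-fold). With arrays centred on their medians, the adjusted p was 0.055 for CX3CR1int over CX3CR1hi and 0.057 for CX3CR1hi over splenic cells. With labelled sex as a block it was 0.088 and 0.057 for the same contrasts, and with colitis as a block 0.14 and 0.071. Leaving out an array ended the call in 5 cases for CX3CR1int over CX3CR1hi cells (adjusted p from 0.058 to 0.10) and in 4 for CX3CR1hi over splenic cells (0.071 to 0.30). The rise over splenic cells in CX3CR1int passed with either block and was lost without the steady-state splenic array (adjusted p = 0.079). Csf2rb and Csf2rb2 are duplicated neighbours of similar sequence, and whether either probe set also reads RNA of the other gene was not tested.

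The alpha chain gene of the GM-CSF receptor varied least among the receptor genes. Csf2ra had log2 levels of 10.44 and 10.83 in the CX3CR1int Ly6Clo and Ly6Chi arrays, and 10.56, 10.47, 10.80 and 10.13 in the colitis F4/80hi, steady-state F4/80hi, reconstituted and resident CX3CR1hi arrays. The splenic arrays had 10.87 in colitis and 10.73 in steady state. The arrays of all 3 populations overlapped. The differences were 0.14 for CX3CR1int minus CX3CR1hi (95% interval -0.33 to 0.60, adjusted p = 0.64), -0.17 for CX3CR1int minus splenic (adjusted p = 0.62) and -0.31 for CX3CR1hi minus splenic cells (interval -0.77 to 0.16, adjusted p = 0.23).

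Il3ra, the alpha chain gene of the IL-3 receptor, was lower in CX3CR1hi macrophages than in splenic monocytes. Its log2 level was 7.60, 7.16, 7.56 and 7.04 in the colitis F4/80hi, steady-state F4/80hi, reconstituted and resident CX3CR1hi arrays, against 8.22 and 8.14 in the colitis and steady-state splenic arrays. The groups did not overlap, and Il3ra fell by 0.84 on the log2 scale in CX3CR1hi cells (SE 0.21, adjusted p = 0.013), to 0.56-fold. The call was lost without the steady-state splenic array (-0.88, adjusted p = 0.066) or the colitis splenic array (-0.80, adjusted p = 0.084), each of which left 1 splenic array that was assumed to vary like the others.

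In CX3CR1int cells Il3ra stood at 7.68 in the Ly6Clo array and at 8.19 in the Ly6Chi array. Both lay above all 4 CX3CR1hi arrays, but the difference of 0.59 (SE 0.21) had an adjusted p of 0.069. Without the Ly6Clo array it was 0.85 (adjusted p = 0.038). The Ly6Chi array lay between both splenic arrays, and CX3CR1int minus splenic was -0.24 (SE 0.25, adjusted p = 0.49).

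Csf2, the GM-CSF gene, was below the array median in every array, with log2 levels from 4.11 to 4.34, and was not tested. With no brightness filter its differences lay between -0.12 and 0.05, with limma adjusted p from 0.26 to 0.73. Transcripts of Csf3, Il3 and Il5, the genes of G-CSF, IL-3 and IL-5, were as low, at 4.14 to 4.55. Lymphoid cells are a known source of GM-CSF. Of 8 measured markers of T cells and innate lymphoid cells, 0 to 2 were at or above the median of an array (mean log2 level 4.83 to 5.98). The CD3 chain genes Cd3d, Cd3e and Cd3g were at most 5.86, whereas Cd4 stood at 10.16 to 10.80 in the CX3CR1hi arrays and Il7r at 7.65 to 10.01 in the colonic arrays. Cd4 and Il7r are also known in macrophages and dendritic cells, and the part of lymphoid cells in these levels was not tested.

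Csf3r separated the arrays more than any other of these genes. Its log2 level was 8.27 in the CX3CR1int Ly6Clo array and 10.58 in the CX3CR1int Ly6Chi array. CX3CR1hi cells had 9.83 in the colitis F4/80hi, 9.47 in the steady-state F4/80hi, 9.14 in the reconstituted and 9.21 in the resident array, and splenic cells 10.95 in colitis and 10.97 in steady state. Both splenic arrays were thus highest, the colonic Ly6Chi array next, the CX3CR1hi arrays between, and the Ly6Clo array lowest. CX3CR1hi cells (9.41 ± 0.31, n = 4) differed from splenic cells (10.96 ± 0.01, n = 2) by -1.55 (SE 0.54, adjusted p = 0.045), which is 0.34-fold. That call was close to the threshold: the estimate stayed between -1.69 and -1.46 when any CX3CR1hi or splenic array was left out, but the adjusted p then lay between 0.055 and 0.17. It was 0.06 with labelled sex as a block and 0.083 with colitis as a block (-1.46). With only the CX3CR1hi and splenic arrays in the fit it was 0.00059. The spread of the CX3CR1int arrays does not enter that fit.

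In CX3CR1int cells the mean of Csf3r, 9.42 ± 1.63 (n = 2), describes neither array. The difference from CX3CR1hi cells was 0.01 (SE 0.54, adjusted p = 0.99), but it was 1.16 without the Ly6Clo array (adjusted p = 0.018) and -1.14 without the Ly6Chi array (adjusted p = 0.016). Against splenic cells it was -1.53 (SE 0.63, adjusted p = 0.11), and -2.69 without the Ly6Chi array (adjusted p = 0.00064). Neutrophils carry Csf3r, and of their 10 markers 1 to 3 were at or above the median of an array, with a mean log2 level of 5.03 to 5.45. The granule genes Camp, Ltf and Mpo were at most 5.03 in any array. S100a8, a calcium-binding protein gene of neutrophils and monocytes, stood at 4.76 to 5.34 in the colonic arrays, against 6.93 in the colitis and 6.78 in the steady-state splenic array. Ngp and Elane, further granule genes, were at 4.47 to 5.18 in the colonic arrays, against 5.89 and 5.36 in the colitis and 5.20 and 5.79 in the steady-state splenic array. The brightest of the list were Ly6g (up to 9.30, in the resident array) and Retnlg (up to 8.67, in the colonic Ly6Chi array). The mean of the list was 5.15 in the Ly6Clo, 5.45 in the colonic Ly6Chi and 5.03 to 5.21 in the CX3CR1hi arrays, against 5.45 in the colitis and 5.37 in the steady-state splenic array. Its part in the levels of Csf3r was not tested.

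Counts of calls among the 7 tested genes stand here beside the shares over all tested genes. In CX3CR1int over CX3CR1hi cells 2 rose (Csf2rb and Csf2rb2) and 1 fell (Csf1r), against 13.3% of all tested genes higher and 16.6% lower. In CX3CR1int over splenic cells 2 rose (the same beta chain genes, with the same CX3CR1int arrays in both comparisons) and 0 fell, against 10.2% higher and 14.2% lower. At an unadjusted limma p under 0.05, 2 were lower there, Csf1r and Csf3r. In CX3CR1hi over splenic cells 1 rose (Csf2rb2) and 2 fell (Csf3r and Il3ra), against 22.2% higher and 29% lower. The median log2 difference of the 7 genes was 0.39, -0.17 and -0.22 in that order, against 0.01, -0.08 and -0.12 over all tested genes. Without the steady-state splenic array, whose Y-linked genes but not Xist went against its label, 1 splenic array remained. All calls against splenic cells were then lost. The differences were 0.56 for Csf2rb and 0.76 for Csf2rb2 in CX3CR1int cells. In CX3CR1hi cells they were 0.27 for Csf2rb2, -1.54 for Csf3r and -0.88 for Il3ra. Leaving out the colitis splenic array, which also left 1, ended the calls of Csf2rb, Csf3r and Il3ra.

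**Figure D2:**
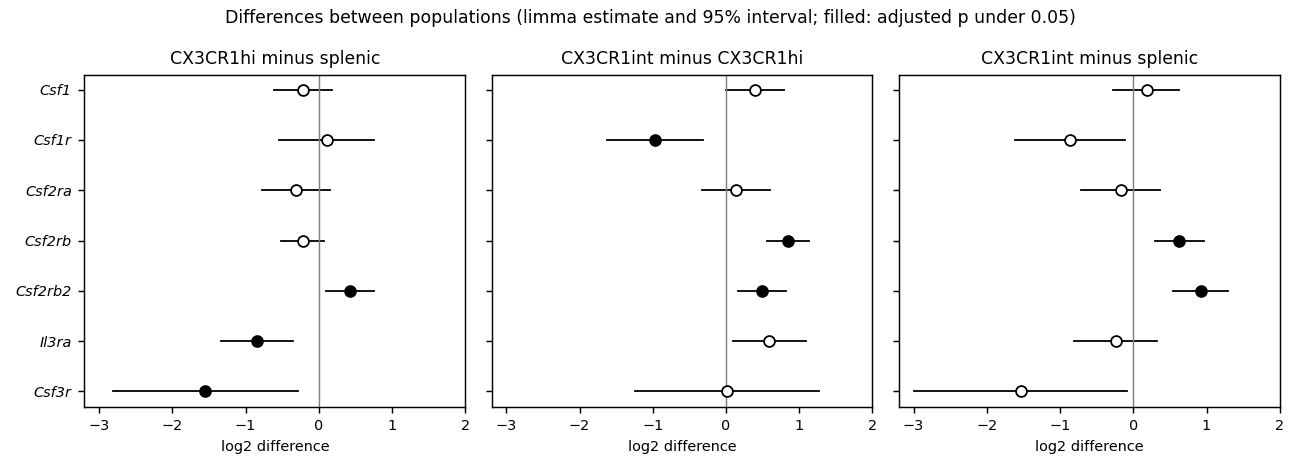
Log2 difference (x axis) of the 7 tested genes for each pair of populations, with the 95% interval of the limma estimate as a line; filled points have an adjusted p under 0.05. Csf2rb and Csf2rb2 are filled right of 0 in both CX3CR1int panels, and Csf1r is filled left of 0 against CX3CR1hi cells.

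Single arrays were compared next, with no replicate check and no test. Within the CX3CR1int gate of the inflamed colon, the Ly6Clo array had less RNA of 2 receptor genes than the Ly6Chi array by at least 2-fold. Csf3r was 8.27 in the Ly6Clo and 10.58 in the Ly6Chi array, a difference of -2.30 or 0.20-fold, and 1.7% of 10132 genes were as far apart. Csf1r was 10.65 in the Ly6Clo and 11.84 in the Ly6Chi array, a difference of -1.19 or 0.44-fold, and 8.8% of genes were as far apart. These were 2 of 7 genes past the brightness filter, against 5.51% of all genes lower and 6.46% higher by 2-fold. The other genes were within 2-fold, at -0.51 for Il3ra, -0.39 for Csf2ra, -0.28 for Csf1, -0.13 for Csf2rb and 0.08 for Csf2rb2.

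Other gene groups differed between the same pair of arrays. The Ly6Clo array had at least 2-fold more RNA of 8 of 8 dendritic cell markers (median difference 2.16), and their mean log2 level was 9.51 in the Ly6Clo and 7.31 in the Ly6Chi array, against 5.95 to 6.62 in the other 6. Itgae, the integrin CD103, stood at 9.47 in the Ly6Clo and 5.64 in the Ly6Chi array. Zbtb46, a transcription factor of classical dendritic cells, stood at 6.86 in the Ly6Clo and 4.67 in the Ly6Chi array, and Ccr7, the receptor for migration to lymph nodes, at 11.66 in the Ly6Clo and 9.21 in the Ly6Chi array. Of 8 Ly6Chi monocyte markers, 6 were lower in the Ly6Clo array (median -3.13, mean level 8.16 in Ly6Clo and 11.19 in Ly6Chi). Macrophage markers had a median difference of -0.38, with 1 of 10 higher and 3 lower. Of the B and plasma cell markers past the filter 0 of 6 were higher and 5 lower (median -1.69), of the stromal markers 0 of 9 were higher and 4 lower (-0.81), and of the endothelial markers 1 of 6 was higher and 3 lower (-1.05). The part of these cell type markers in the lower Csf1r and Csf3r was not tested, and fewer cells of a type and less RNA per cell cannot be told apart in sorted bulk samples.

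Genes known to respond to GM-CSF were also apart. In the Ly6Clo array 6 of the 10 were higher by 2-fold or more and 2 were lower (median 1.49). Over all genes 6.46% were higher and 5.51% lower, shares that also stand beside the feedback and regulator counts below. Dendritic cell markers were higher in the same array, and their part in the levels of these genes was not tested. The chemokine genes Ccl22 and Ccl17 had the largest differences, at 10.69 and 10.88 in the Ly6Clo array against 5.68 and 6.69 in the Ly6Chi array. Csf2ra and Csf2rb, which encode the GM-CSF receptor, were within 2-fold in the same arrays. Of 12 feedback and STAT5 target genes past the filter, 1 was higher and 3 were lower. Socs2, a suppressor of cytokine signalling, was 11.18 in the Ly6Clo and 8.63 in the Ly6Chi array, and Dusp6, a phosphatase that limits ERK, was 8.79 in the Ly6Clo and 10.78 in the Ly6Chi array. Of 12 regulator genes of the receptors, 1 was higher and 2 were lower, the lower ones being Cebpb (8.16 in Ly6Clo, 10.93 in Ly6Chi) and Ets2 (9.85 in Ly6Clo, 11.25 in Ly6Chi).

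**Figure D3:**
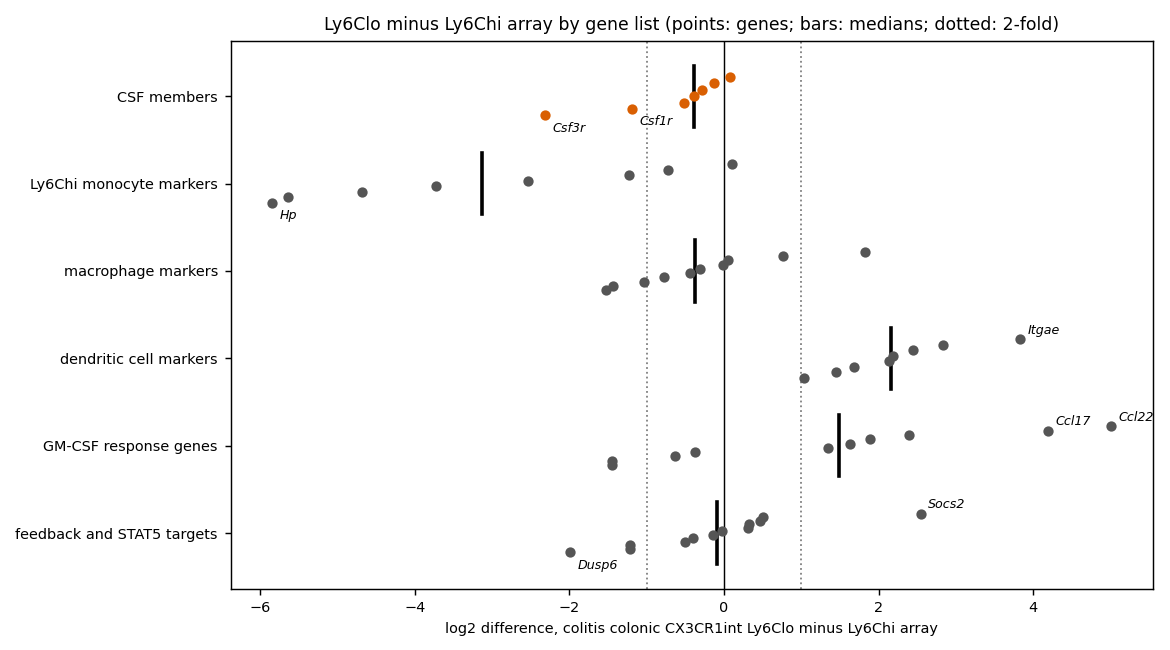
Log2 difference (x axis) between the colitis CX3CR1int Ly6Clo and Ly6Chi arrays for genes past the brightness filter in 6 lists (rows); each point is a gene, bars are list medians and dotted lines mark 2-fold. Csf3r (-2.30) and Csf1r (-1.19) are the members beyond the left dotted line, and all 8 dendritic cell markers lie right of the right one.

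In the other single-array comparisons none of the 7 genes was 2-fold apart. Reconstituted minus resident CX3CR1hi macrophages gave 0.67 for Csf2ra (10.80 in reconstituted, 10.13 in resident cells) and 0.51 for Il3ra (7.56 in reconstituted, 7.04 in resident cells). Differences at least that large were found for 5.5% and 9.8% of 10374 genes, and 1.76% were 2-fold apart. The remaining genes lay between -0.06 (Csf3r) and 0.18 (Csf2rb), with Csf1r at 0.06. Steady-state F4/80hi minus resident cells, a pair of steady-state CX3CR1hi arrays that differs in labelled sex, gave at most 0.33, for Csf2ra, while 3.64% of 10384 genes were 2-fold apart.

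Colitis was compared with steady state in the F4/80hi gate and in the spleen. In colonic F4/80hi cells Csf1 was 6.49 in colitis and 5.99 in steady state (0.50), and Il3ra was 7.60 in colitis and 7.16 in steady state (0.44). Differences of that size or more were found for 8.8% and 12.2% of 10269 genes, and 1.47% were 2-fold apart. The others were 0.35 for Csf3r, 0.10 for Csf2ra, -0.02 for Csf1r, -0.13 for Csf2rb and -0.22 for Csf2rb2. In splenic Ly6Chi cells Csf2rb2 had the largest difference, with 10.20 in colitis and 9.88 in steady state (0.32), which 8.6% of 9469 genes reached. The other 6 were between -0.16 (Csf1) and 0.14 (Csf2ra and Csf2rb), and 0.708% of genes were 2-fold apart. The labelled sex of the splenic arrays differed.

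Colonic CX3CR1int Ly6Chi minus splenic Ly6Chi cells, both from colitis, gave 0.72 for Csf2rb2 (10.91 in colon, 10.20 in spleen) and 0.62 for Csf2rb (12.06 in colon, 11.44 in spleen). Csf1 differed by 0.40, Csf3r by -0.38, Csf1r by -0.26, Csf2ra by -0.04 and Il3ra by -0.03. In this comparison 13.7% of 10083 genes were 2-fold apart, and 21.9% differed at least as much as Csf2rb2.

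**Figure D4:**
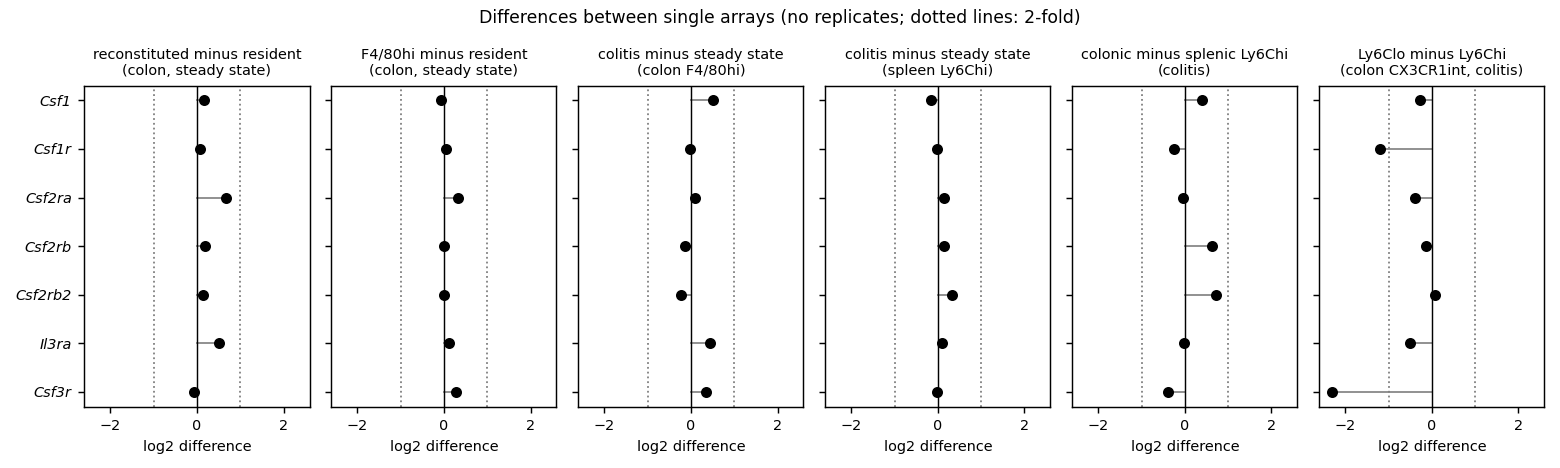
Log2 difference (x axis) of the 7 genes past the brightness filter in 6 comparisons of single arrays (1 panel each, first-named array minus the other); dotted lines mark 2-fold. Only Csf3r and Csf1r in the Ly6Clo minus Ly6Chi panel pass a dotted line.

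The receptors signal through kinases, STAT factors and feedback inhibitors, which were followed as lists chosen by name. Of 26 signalling genes tested, 10 rose and 1 fell in CX3CR1int over CX3CR1hi cells, against 13.3% of all genes higher and 16.6% lower, with a median of 0.34 against 0.01 over all genes. With colitis as a block 6 of the 26 rose and 1 fell, against 3.79% of all genes higher and 5.31% lower. Jak2, the kinase bound to the common beta chain, rose by 1.96 (SE 0.20, adjusted p = 0.00068), with 11.55 and 10.81 in the Ly6Clo and Ly6Chi arrays against 9.12 to 9.33 in the CX3CR1hi arrays. Stat5a, the transcription factor it activates, rose by 1.50 (SE 0.17, adjusted p = 0.0010), and the Src family kinase gene Fgr by 1.60 (adjusted p = 0.0030). Src was the gene that fell, by 2.14 on the log2 scale (adjusted p = 0.00024). Epithelial markers were also lower in this contrast, and their part in the level of Src was not tested. Against splenic cells, 4 of the 26 rose in CX3CR1int cells and 2 fell, among them Jak2 (1.32, adjusted p = 0.0070) and Stat5b (-0.76, adjusted p = 0.041), against 10.2% and 14.2% of all genes. Without the steady-state splenic array 0 of the 26 passed there, with Jak2 at 1.38 (adjusted p = 0.053) and Stat5b at -0.74 (adjusted p = 0.19), and with colitis as a block Stat5b was also lost (adjusted p = 0.064). In CX3CR1hi over splenic cells 4 rose and 16 fell, against 22.2% and 29% of all genes, with a median of -0.46 against -0.12. Src rose by 2.99 there (adjusted p = 1.3e-05), and Fgr (-2.24), Cblb (-1.63), a ubiquitin ligase gene, and Plcg2 (-1.57), a phospholipase gene, fell. Leaving out the steady-state splenic array left 1 splenic array, and fewer of the 26 and of all genes passed. The differences were then 3.06 for Src, -2.26 for Fgr, -1.64 for Cblb and -1.57 for Plcg2.

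Feedback and STAT5 target genes were mostly higher in the colon. Of 13 tested, 10 rose and 0 fell in CX3CR1hi over splenic cells (median 1.16), against 22.2% of all genes higher and 29% lower (median -0.12). In CX3CR1int over splenic cells 7 rose and 0 fell (median 0.82), against 10.2% of all genes higher and 14.2% lower (median -0.08). With colitis as a block 10 rose in CX3CR1hi and 5 in CX3CR1int cells, against 20.6% and 7.1% of all genes higher. Of the 14 genes listed, 9 were at or above the array median in each splenic array. Cish, Socs2, Spry1 and Spry2 were below it in both splenic arrays and entered the tests through colonic arrays alone. These genes could hardly have been called lower in colonic cells, so the counts of 0 lower were partly set by the filter. Leaving out the steady-state splenic array left 1 splenic array, and fewer feedback genes, as well as fewer of all genes, then rose in both contrasts. Socs2 was at 11.18 and 8.63 in the CX3CR1int Ly6Clo and Ly6Chi arrays and at 8.35 to 9.26 in the CX3CR1hi arrays, against 4.88 and 4.60 in the colitis and steady-state splenic arrays. Its difference was 5.17 for CX3CR1int (SE 0.71, adjusted p = 0.0028) and 4.13 for CX3CR1hi cells (SE 0.62, adjusted p = 0.0011). Cish, a STAT5-induced inhibitor, rose by 2.67 in CX3CR1int over splenic cells (adjusted p = 0.00041) and by 1.24 in CX3CR1int over CX3CR1hi cells (adjusted p = 0.0039). Between CX3CR1int and CX3CR1hi cells 2 of the 13 rose, Cish and the kinase gene Pim1 (0.95), and 3 fell, among them Dusp6 (-1.47) and Spred1 (-0.85), both inhibitors of the ERK pathway, against 13.3% of all genes higher and 16.6% lower. With colitis as a block 1 rose and 1 fell, against 3.79% of all genes higher and 5.31% lower. Pim1 (adjusted p = 0.20) and Dusp6 (adjusted p = 0.19) were lost. Epithelial markers were high in the same colonic arrays, and their part in the feedback genes was not tested.

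Regulators of the receptor genes and GM-CSF response genes gave calls in both directions, some of them lost in the added fit. Of 12 regulators, 1 rose and 3 fell in CX3CR1int over CX3CR1hi cells, against 13.3% of all genes higher and 16.6% lower: Irf4 rose by 1.57 (adjusted p = 0.012), while Maf (-2.64), Cebpa (-1.84) and Klf4 (-1.04) fell. With colitis as a block 0 rose, with Irf4 at 1.35 (adjusted p = 0.10), and 3 fell. In CX3CR1hi over splenic cells 6 rose and 2 fell, led by Egr1 (4.14) and Ets2 (3.74), against 22.2% and 29% of all genes. In CX3CR1int over splenic cells 4 rose and 1 fell, which was Cebpa (-1.45), against 10.2% and 14.2%. Of 9 GM-CSF response genes tested, 2 rose and 3 fell in CX3CR1int over CX3CR1hi cells, against 13.3% of all genes higher and 16.6% lower. Ccl17 (3.14, SE 1.00, adjusted p = 0.049) was up, and Car4 (-2.59) and Mmp12 (-2.23) were down. With colitis as a block 0 rose and 1 fell, and the adjusted p was 0.18 for Ccl17, 0.079 for Car4 and 0.15 for Mmp12. Without the steady-state splenic array it was 0.078 for Ccl17 and 0.051 for Mmp12. Itgax, which encodes the integrin CD11c, rose by 3.13 in CX3CR1hi over splenic cells and by 2.53 in CX3CR1int over splenic cells, the last of which had an adjusted p of 0.10 without the steady-state splenic array. Car4, a carbonic anhydrase gene, is also expressed by colonic epithelium.

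Csf3r was the only one of the 7 genes whose level ranged over at least 2 on the log2 scale, so the genes most like it were sought among 10226. With each profile centred on its own mean over the 8 arrays, the smallest root mean square difference was 0.17 for Irak3, a gene of the toll-like receptor pathway, followed by Aldh3b1 (0.19), an aldehyde dehydrogenase gene, and Xdh (0.22), which encodes xanthine dehydrogenase. The median over genes was 0.92. Irak3 had log2 levels of 7.98 and 10.13 in the CX3CR1int Ly6Clo and Ly6Chi arrays, 8.39 to 9.12 in the CX3CR1hi arrays, and 10.33 in each splenic array. This is a description over 8 arrays that share 1 deposited table.

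**Figure D5:**
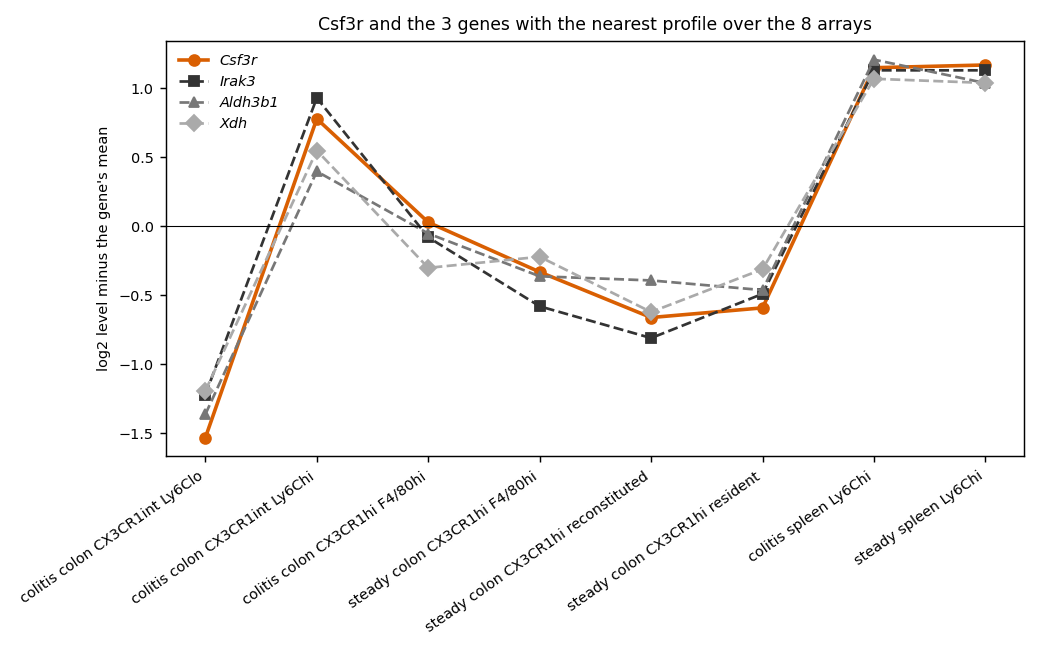
Log2 level minus the gene's mean (y axis) over the 8 arrays (x axis) for Csf3r and the 3 genes with the nearest profile; lines join the arrays only to guide the eye. All 4 genes are lowest in the CX3CR1int Ly6Clo array and highest in the splenic arrays.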

How the data were processed

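Biotin-labelled total RNA of the sorted cells was read on Affymetrix arrays, as the labels' protocols state. The authors deposited log2 values for 35399 probe sets, made with RMA and Partek per the submitters' processing notes. Their versions, settings and genome build are not given in the sources used here. The number of arrays limits the precision.

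Genes were named from the 21789 probe sets with 1 symbol in the platform annotation. Where a gene had several, the one with the highest mean over the 8 arrays was used. Of 176 genes in the other lists, 166 were measured and 10 are not analysed here. The members and lists were chosen with earlier results of these data known.

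The test between populations was limma 3.58.1 (R 4.3.3, functions lmFit and eBayes). It used all 8 arrays and the 10673 genes that reached the median of their array in 2 or more, and p-values were adjusted by Benjamini-Hochberg, with a threshold of 0.05. The fit was tested on simulated data. A p-value measures only the spread between these arrays. Single arrays were compared over genes whose brighter array was at or above its median. Named list genes were up to 4 per list and population contrast, by absolute log2 difference past the threshold, and up to 2 per single-array comparison past 2-fold. Cell type markers were described as lists, with examples chosen after their values were seen. Likeness left out predicted genes, histone clusters, small RNAs, antigen receptor segments and olfactory or vomeronasal receptors. Alternatives changed the brightness filter, probe set rule, scaling, sex block, arrays in the fit, variance prior and single-array partners. Colitis as a block, and the list counts under it and without the steady-state splenic array, were added after seeing the data. Tables and figures were made in Python 3.11.15 (pandas 2.3.3, numpy 2.4.6, matplotlib 3.10.9).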

Additional observations from a re-analysis of the deposited data

Results flagged for a closer look

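Colitis and steady state differed in opposite directions in the colonic CX3CR1hi F4/80hi and the splenic Ly6Chi cells for 4 of the 7 tested genes. There was 1 array on each side, and the difference between the organs was not tested. The share of all genes with opposite directions was not counted. Csf1 was 0.50 higher on the log2 scale in colitis in the colon and differed by -0.16 in the spleen. Csf3r differed by 0.35 in the colon and by -0.01 in the spleen. The beta chain genes ran the other way, with -0.13 in the colon and 0.14 in the spleen for Csf2rb, and -0.22 in the colon and 0.32 in the spleen for Csf2rb2. Each of these differences was under 2-fold. Among the 4 CX3CR1hi arrays, 0 of 9 genes had an array whose gap to the nearest other exceeded 0.829 of the range, the critical value of Dixon's test.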

How the results depend on the processing

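Each group had 1 array and the populations were pooled from unlike groups, so p-values measure only that spread. No paired analysis was possible because each group had 1 array and the labels carry no replicate numbers. Where leaving out an array left a population with 1, that array was assumed to vary like the others. Causes of the changes below were not tested. For CX3CR1hi minus splenic cells, the count of members higher (1) was 0 with centred arrays, the sex block or colitis as a block, and 0 to 1 when each array was left out in turn. The count lower (2) was 1 with no filter, the 75th percentile filter, a repeated quantile normalization or either block, and 0 to 2 with an array left out. All genes called (5466) were 3505 with the 75th percentile filter, which tests fewer genes, and 3119 to 6386 with an array left out. For CX3CR1int minus CX3CR1hi cells, the count higher (2) was 1 with centred arrays or either block, and 1 to 3 with an array left out. The count lower (1) was 0 with no filter, either block or only the arrays compared, and 0 to 2 with an array left out. All genes called (3186) were 1992 with the sex block, 972 with the colitis block and 2394 to 3634 with an array left out. For CX3CR1int minus splenic cells, the count higher (2) was 1 with only the arrays compared and 0 to 2 with an array left out, and the count lower (0) was 0 to 2. All genes called (2605) were 1092 with only the arrays compared, 1643 with the colitis block and 619 to 3732 with an array left out.

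The difference of Csf3r between CX3CR1int and CX3CR1hi cells, 0.01, was -0.023 with centred arrays, -0.028 with quantile normalization, -0.145 with the sex block, -0.234 with the colitis block, -0.057 without the resident, -0.078 without the reconstituted, -1.14 without the Ly6Chi and 1.164 without the Ly6Clo array. With an array left out, Csf2ra ranged between -0.057 (without Ly6Chi) and 0.335 in CX3CR1int minus CX3CR1hi cells. In CX3CR1int minus splenic cells Csf2ra ranged between -0.365 and 0.026, and Il3ra between -0.50 and 0.012, with the positive values from leaving out Ly6Clo. Over the 7 genes and 3 contrasts, leaving out an array kept the direction and side of the threshold in 130 cases, ended a call in 27, added one in 5 and reversed a sign in 6, of which Csf3r without the Ly6Chi array (-1.14, adjusted p = 0.016) also passed the threshold. The other alternatives, with colitis as a block, which was added after seeing the data, kept them in 164 cases, ended a call in 15 and reversed a sign in 4. Both sets of counts pool pairs of gene and contrast that were called in the main setting with pairs that were not. Only members called there could lose a call: 3 in CX3CR1hi minus splenic, 3 in CX3CR1int minus CX3CR1hi and 2 in CX3CR1int minus splenic cells. The kept cases thus do not measure how steady the calls were. Of the calls, the rise of Csf2rb in CX3CR1int over CX3CR1hi cells passed in every alternative. Members at least 2-fold apart between single arrays were the same in every alternative run. With the 75th percentile filter, all genes 2-fold apart were 84 for reconstituted minus resident (183 in the main setting), 223 for F4/80hi minus resident (378), 69 for colitis minus steady-state F4/80hi (151), 28 for the splenic pair (67), 669 for colonic minus splenic Ly6Chi (1385) and 727 for Ly6Clo minus Ly6Chi (1213). Colitis F4/80hi minus resident cells, the other choice of partner, gave 468.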

Other observations

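Receptors and ligands related to the colony-stimulating factor system differed between the populations. Flt3, the receptor tyrosine kinase of dendritic cell precursors, rose by 4.96 on the log2 scale in CX3CR1int over CX3CR1hi cells (SE 0.49, limma adjusted p = 0.00059), with 11.16 and 9.03 in the Ly6Clo and Ly6Chi arrays and 4.87 to 5.32 in the CX3CR1hi arrays. In CX3CR1hi over splenic cells it fell by 3.69 (adjusted p = 0.00068). Kit, the stem cell factor receptor, stood at 10.37 in the Ly6Clo and 7.06 in the Ly6Chi array, against 5.02 and 5.01 in the colitis and steady-state splenic arrays, and rose by 3.70 in CX3CR1int over splenic cells (SE 0.90, adjusted p = 0.023). That call was lost with colitis as a block (adjusted p = 0.056) and without the steady-state splenic array (adjusted p = 0.12). Kitl, its ligand gene, rose by 3.81 in CX3CR1hi over splenic cells (adjusted p = 1.2e-05) and by 1.95 in CX3CR1int over splenic cells (adjusted p = 0.0016). For CX3CR1int minus CX3CR1hi cells the difference of Kitl was -1.86 (adjusted p = 0.00087). All 10 epithelial markers also rose in both contrasts with splenic cells. Between CX3CR1int and CX3CR1hi cells 0 of these 10 were higher and 6 lower. The part of epithelial markers in the level of Kitl was not tested. The Il5ra transcript stayed at 4.55 to 5.02 in all 8 arrays.

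Between reconstituted and resident CX3CR1hi macrophages, 3 of 9 GM-CSF response genes were at least 2-fold higher and 1 was lower, against 1.76% of all genes 2-fold apart. Ccl17 stood at 6.65 in the reconstituted and 5.16 in the resident array, and Car4 at 9.73 in the reconstituted and 11.20 in the resident array. Between colitis and steady-state splenic cells, 3 of 9 feedback genes were higher, among them Osm, which encodes oncostatin M, at 7.74 in colitis and 5.99 in steady state, against 0.708% of all genes 2-fold apart. In the same splenic pair 3 of 4 epithelial, 3 of 10 macrophage and 3 of 5 B and plasma cell markers were at least 2-fold higher in colitis. In each of these lists 0 were lower, and of 8 Ly6Chi monocyte markers 0 were higher and 0 lower. Labelled sex also differed, and the steady-state splenic array carried Y-linked RNA against its label. The part of these differences in the level of Osm was not tested. Both pairs, reconstituted with resident and colitis with steady-state spleen, are single arrays with no test.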
